A study of Mus musculus with 8 samples.

Results

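The proximal NF-YA peaks described here are those whose centre lies more than 200 and at most 1000 bases from the start of the protein-coding gene assigned to the peak. This is not always the nearest annotated start. The proximal peaks were selected by the deposited distance and gene biotype alone, not by signal, and number 699 of 7196 NF-YA peaks in the table. The 699 peaks belong to 662 genes, of which 627 have 1 proximal peak, 33 have 2 and 2 have 3. They are compared with the 1887 core peaks, whose centre is within 200 bases of the assigned coding start, and with the 1251 coding peaks that lie farther out, up to 10000 bases.

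The series profiled NF-YA by CUT&RUN in cultured, activated muscle stem cells (MuSCs) of C57BL/6 mice. CUT&RUN directs a nuclease to an antibody on chromatin and sequences the DNA that is released. In Taf4asKO mice loxP sites flank exons 11 to 12 of *Taf4a* on both alleles. A tamoxifen-dependent Cre expressed from *Pax7*, a gene active in MuSCs, had deleted these exons. Tamoxifen was given at an age of 8 to 20 weeks. The study's list of genotypes names this treatment for Taf4asKO mice. Whether the controls of these libraries received it is not stated, so that treatment may differ between the genotypes. MuSCs were isolated by flow cytometry. The labels call the control libraries WT, and the methods name wild type MuSCs for this assay. For the study as a whole, controls are listed as littermates that carry the floxed *Taf4a* alleles with or without the Cre allele (Pax7CE). Whether the WT libraries came from such littermates is not stated. Mice of both genotypes may also carry a Pax7 Zs green reporter. The labels give 2 NF-YA libraries for each genotype, Control 1 and 2 and Taf4asKO 1 and 2, and do not say whether these came from separate animals or cultures, so that p-values may measure technical spread. The 4 IgG libraries were not analysed here. Values are reads per peak after the authors' normalization, hereafter normalized reads, and are always given in the order Control 1, Control 2, Taf4asKO 1 and Taf4asKO 2. Judged from the steps between values, Control 1 had about 34.5 reads and Control 2 about 10.1 reads in the median proximal peak, so that single values of Control 2 are the least precise of the controls. Of the defining MuSC genes, *Myod1*, *Cdh15* and *Sdc4* had NF-YA peaks and *Pax7*, *Myf5*, *Vcam1* and *Itga7* had none, and no proximal peak was assigned to any of the 7. Binding at a gene does not measure its expression, so that this is no check of the cell type.

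NF-Y is a trimer of NF-YA, NF-YB and NF-YC. NF-YB and NF-YC form a histone-like pair, and NF-YA reads the CCAAT pentamer in the minor groove of the DNA. CCAAT boxes are classical elements of promoters, where they usually lie a short way upstream of the start, often in more than 1 copy and in either orientation. TAF4A, the product of *Taf4a* (*Taf4*), is a subunit of TFIID, the complex that binds core promoters and helps to recruit RNA polymerase II.

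The sequences below show how CCAAT lies in strong proximal peaks, and were chosen for holding it. They are the 8 strongest proximal peaks with a CCAAT in the central 200 bases, outside annotated untranslated regions, each given as the 80 bases around the CCAAT nearest the peak centre. All are from GRCm38 (mm10), read 5′ to 3′ on the strand of the gene, with CCAAT and its reverse complement ATTGG in capitals.

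*Sp1*, chr15:102405786-102405865, plus strand: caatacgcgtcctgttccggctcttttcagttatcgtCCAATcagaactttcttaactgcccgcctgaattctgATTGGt
*Tomm40*, chr7:19715741-19715820, minus strand: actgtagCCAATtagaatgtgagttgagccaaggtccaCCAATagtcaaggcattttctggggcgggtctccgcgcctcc
*Zbtb20*, chr16:42875532-42875611, plus strand: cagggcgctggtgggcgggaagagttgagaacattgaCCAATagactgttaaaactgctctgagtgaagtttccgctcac
*Agpat1*, chr17:34603960-34604039, plus strand: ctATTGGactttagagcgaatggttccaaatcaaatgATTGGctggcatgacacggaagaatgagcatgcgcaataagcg
*Fam72a*, chr1:131527590-131527669, plus strand: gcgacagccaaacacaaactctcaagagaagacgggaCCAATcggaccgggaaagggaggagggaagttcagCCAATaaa
*Prr11*, chr11:87108913-87108992, minus strand: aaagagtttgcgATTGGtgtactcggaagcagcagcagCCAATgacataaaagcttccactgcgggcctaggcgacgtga
*Osbp*, chr19:11965406-11965485, plus strand: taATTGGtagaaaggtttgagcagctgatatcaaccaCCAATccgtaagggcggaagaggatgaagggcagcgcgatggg
*Ppm1b*, chr17:84957402-84957481, plus strand: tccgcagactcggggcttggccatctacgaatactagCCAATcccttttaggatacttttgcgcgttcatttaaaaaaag

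In 6 of these 8 stretches a second CCAAT lies within the same 80 bases.

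The proximal peaks were spread over both sides of the start but were strongest just upstream of it. Of the 699 peaks 361 lay upstream (51.6%, 95% Wilson interval 47.9% to 55.3%) and 338 downstream, against 83.0% upstream for core peaks, a difference of −31.4 percentage points (Newcombe interval −35.4 to −27.3). The 203 peaks centred up to 400 bases upstream had a median of 119, 111, 97 and 107 normalized reads in the 4 libraries. Farther upstream the medians were lower, with 24.5, 20, 22.5 and 25 between 400 and 600 bases and 15, 16, 13 and 15 beyond 800 bases. On the downstream side the medians lay closer together, and in Control 1 were 36, 30.5, 32.5 and 21 in the 4 successive bins of 200 bases. Upstream peaks lay in intergenic sequence in 270 cases and in another gene in 91, and downstream peaks lay in introns in 196, in untranslated regions in 106, in noncoding exons in 20 and in coding exons in 13.

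**Figure D1:**
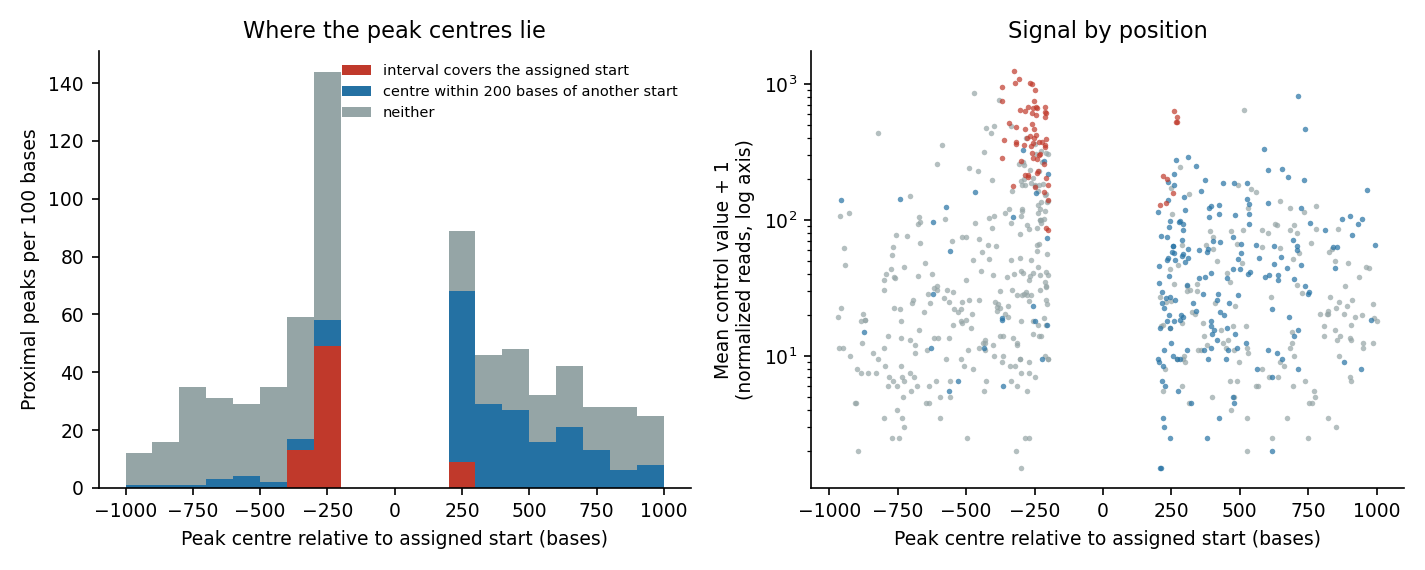
Left, number of proximal peaks per 100 bases against the position of the peak centre relative to the assigned start (negative values are upstream), stacked by class. Right, mean of the 2 control libraries plus 1 (normalized reads, log axis) against the same position, 1 point per peak. The 71 peaks whose interval covers the start crowd next to the 200-base boundary and hold most of the highest values.

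Over all proximal peaks the median was 36, 33, 34 and 37 normalized reads, between those of core peaks (64, 59, 56 and 65) and of peaks farther from starts (13, 13, 14 and 14). This order was the same in each library. The mean of the 2 control libraries ranged from 0.5 to 1256 in proximal peaks.

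The proximal peaks fall into 3 classes by their relation to annotated starts in GENCODE M21. In 71 peaks the peak interval is so wide that it covers the assigned start although its centre is more than 200 bases away. A further 204 have their centre within 200 bases of another annotated transcript start, and 424 do neither. The 71 covering peaks had a median width of 606 bases, against 183.5 bases for the other proximal peaks, and their median was 396, 378, 298 and 335 normalized reads. They made up 48 of the 68 proximal peaks with a mean control value above 300. Of the 71 covering peaks 62 had their centre upstream of the start.

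In all 71 covering peaks the interval held at least 2 CCAAT pentamers, with a median of 5 and at most 10, whereas core peaks, with a median width of 232 bases, had a median of 2 and the other proximal peaks of 1. These counts are per interval and grow with its width. Of the CCAAT nearest to the start, 60 of 71 lay upstream of it and 66 lay within 200 bases of it. The median position over all 71 was −48 bases (quartiles −78.5 and −26). Most covering peaks thus hold CCAAT close to the start as well as under the peak centre. CCAAT was searched only inside the interval, and 62 of the 71 intervals are centred more than 200 bases upstream. The upstream side was therefore largely set by the choice of peaks. *Tomm40*, which encodes the channel of the protein import pore of the outer mitochondrial membrane, shows such an array in the 230 bases that end at its start, with 5 CCAAT in the gene's direction. *Hdgfl2*, a reader of histone methylation, is the strongest proximal peak without CCAAT in the central 200 bases, and has 3 in the 150 bases next to the start.

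*Tomm40*, up to the start, chr7:19715439-19715668, minus strand: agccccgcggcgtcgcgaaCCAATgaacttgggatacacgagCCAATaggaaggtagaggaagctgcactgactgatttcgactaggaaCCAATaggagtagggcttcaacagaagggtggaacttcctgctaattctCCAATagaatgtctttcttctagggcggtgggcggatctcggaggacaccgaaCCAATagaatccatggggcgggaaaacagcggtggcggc
*Hdgfl2*, up to the start, chr17:56079484-56079633, plus strand: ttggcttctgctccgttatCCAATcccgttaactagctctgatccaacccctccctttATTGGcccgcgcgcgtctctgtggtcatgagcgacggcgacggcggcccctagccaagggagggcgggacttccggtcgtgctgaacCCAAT

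The 10 strongest proximal peaks, by the mean of the controls, are described next. *Sp1*, which encodes a zinc finger factor that binds GC boxes, had the highest signal with 1187, 1324, 922 and 978 normalized reads, 327 bases upstream of the start. *Tomm40* followed with 1003, 1177, 676 and 736. *Agpat1*, an acyltransferase of phospholipid synthesis, had 971, 1063, 732 and 821. *Zbtb20*, a zinc finger repressor, had 1046, 988, 762 and 895. The signal at *Fam72a* was 917, 1076, 664 and 742, and at *Hdgfl2* it was 955, 959, 692 and 778. *Prr11*, a gene of cell cycle progression, had 888, 910, 658 and 726, and *Osbp*, an oxysterol-binding protein that carries sterols at the Golgi, had 885, 819, 662 and 718. *Ppm1b*, a protein phosphatase, had 876, 760, 680 and 706, and *Khsrp*, an RNA-binding protein that promotes mRNA decay, had 794, 727, 574 and 660. In each of the 10 peaks both Taf4asKO values were below both control values, which was the case for 28.6% of all tested peaks of any strength. Among the tested peaks outside the proximal set with a mean above 100, 83.9% had a negative fold change. The log2 fold changes of the 10 peaks ranged from −0.62 at *Tomm40* to −0.24 at *Ppm1b*, and from −0.41 to −0.024 at the same genes when the libraries were centred on peaks whose mean was 100 or more. Of the 10 peaks 9 lay upstream. *Ppm1b* is the exception, at 713 bases downstream of its start and 31 bases from the start of *1110020A21Rik*, which is transcribed in the opposite direction.

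Another annotated start was within 200 bases of 217 proximal centres (31.0%, Wilson interval 27.7% to 34.6%), against 15.3% of the peaks beyond 1000 bases, a difference of 15.8 points (11.8 to 19.8), and 64.6% of core peaks, a difference of −33.6 points (−37.5 to −29.4). These were 184 of 338 downstream peaks (54.4%) and 33 of 361 upstream peaks (9.14%). The assigned start is the outermost one of the gene, so that the distance rule leaves upstream peaks no other start of the same gene within 200 bases, and the sides cannot be compared on this share. For 160 of the 217, all downstream, the other start belonged to the same gene, for 51 to a gene on the opposite strand and for 6 to another gene on the same strand. *Dcaf11*, a substrate receptor of a ubiquitin ligase, had 489, 444, 388 and 452 normalized reads 738.5 bases downstream of its assigned start.

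In 19 upstream peaks the centre lay between the assigned start and the start of a coding gene transcribed in the opposite direction, less than 1000 bases away. Their median was 151, 130, 134 and 157 normalized reads, against 39, 36, 37 and 44 for the other 342 upstream peaks. *Agpat1* and *Rnf5*, *Fam72a* and *Srgap2*, and *Prr11* and *Ska2* are such pairs and are among the 10 strongest peaks. *Hist1h2bh* and *Hist1h3f*, which encode core histones, had 220, 205, 168 and 174, and *Oip5* and *Nusap1*, which both encode proteins of mitotic chromosomes and the spindle, had 151, 166, 134 and 157. The pair *Ap4m1* and *Mcm7*, the latter a subunit of the replicative helicase, had 156, 130, 167 and 152.

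CCAAT was in the central 200 bases of 522 proximal peaks (74.7%, Wilson interval 71.3% to 77.8%). In windows of the same length centred 1000 bases to either side of the proximal peaks the share was 23.8% (21.7% to 26.1%). It was lower than the 93.2% of core peaks by 18.5 points (interval of proximal minus core −22.0 to −15.2). The difference varied with strength. It was larger among peaks with a mean control value above 10 and up to 30, with 66.8% and 90.8% (−23.9 points, −31.4 to −16.8). It was smaller among peaks above 100, with 90.9% and 95.3% (−4.37 points, −9.55 to −0.488), and for proximal peaks without another peak within 1000 bases (−5.00 points, −8.62 to −1.97). The share in peaks beyond 1000 bases was 72.2%, and the difference from it, 2.50 points, had an interval that spans 0 (−1.63 to 6.495). At least 2 CCAAT were found in 41.2% of proximal, 54.5% of core and 31.2% of the more distant peaks. The intervals treat peaks as independent and cover counting error only.

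Signal was higher in peaks with more CCAAT. The 177 proximal peaks without CCAAT in the centre had a median of 13, 10, 11 and 12 normalized reads, the 234 with 1 had 28, 26, 27 and 29.5, the 200 with 2 had 71.5, 66.5, 61 and 69, and the 88 with 3 or more had 171, 157, 132.5 and 149.5. The 4 libraries gave the same order. Peaks with more CCAAT were also wider, with median widths of 132, 177, 252.5 and 373 bases, and the part of width in this relation was not tested.

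**Figure D2:**
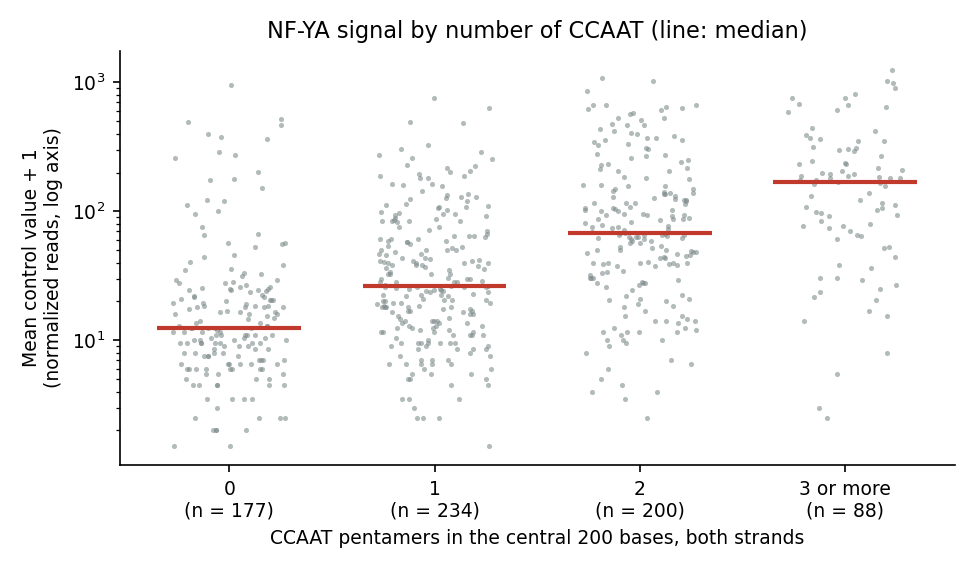
Mean of the 2 control libraries plus 1 (normalized reads, log axis) of each proximal peak by the number of CCAAT pentamers in its central 200 bases, counted on both strands. Red lines are medians, which rise from 11.5 without CCAAT to 167 with 3 or more before 1 is added.

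Proximal peaks beside a stronger NF-YA peak held CCAAT less often than solitary ones. Those beside a weaker peak had a share close to that of solitary ones over all strengths, but not among peaks of similar strength. No other peak lay within 1000 bases of 414 proximal peaks, 193 had a stronger peak as their nearest neighbour within that distance, and 92 had a weaker one. These classes were formed after the values had been seen. CCAAT was in the centre of 88.2% of the 414 solitary peaks (Wilson interval 84.7% to 90.9%), of 87.0% of the peaks beside a weaker one, and of 39.9% of those beside a stronger one (33.2% to 46.9%). The peaks beside a stronger one differed from the solitary peaks by −48.3 points (−55.5 to −40.4). They were also weak, with a median of 13, 13, 11 and 12 normalized reads against 56.5, 52, 49.5 and 59. Between peaks of similar strength, with a mean control value above 10 and up to 30, the shares were 38.8% of 80 and 92.4% of 92, a difference of −53.6 points (−64.3 to −40.5). In this range 60.0% of the 15 peaks beside a weaker one held CCAAT (Wilson interval 35.7% to 80.2%). For the 193 peaks beside a stronger one, this neighbour was a core peak in 151 cases. The median gap between the intervals was 189 bases, and the neighbour's median control value was 115.5. Whether reads of the neighbour contribute to the peaks beside it was not tested.

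Of the 662 genes 183 also had a core peak. Where a gene had several peaks of a kind, the strongest was used. The proximal peak was weaker than the core peak of the same gene in both controls in 137 of the 183 genes and stronger in 38. The median of log2(proximal + 1) minus log2(core + 1) was −2.32, −2.28, −2.28 and −2.25 in the 4 libraries, and the values of the genotypes overlapped. *Gsk3b*, a kinase of Wnt and insulin signalling, showed the largest excess of the core peak among genes whose proximal peak had a mean of 10 or more, with 17, 13, 12 and 15 normalized reads 482 bases upstream and 911, 874, 634 and 652 at the core. The opposite extreme was *Dcaf11*, with 23, 13, 18 and 24 at its core peak. *Parp3*, an ADP-ribosyltransferase of DNA repair, had 259, 287, 189 and 222 at its proximal peak, 103.5 bases from the start of *Rrp9*, and 20, 13, 15 and 22 at the core.

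The bases next to CCAAT differed between peaks and their flanks. Of 923 CCAAT in the central windows of proximal peaks, 60.1% had purines at both positions before the pentamer (Wilson interval 56.9% to 63.2%), against 29.4% of 405 CCAAT in the windows 1000 bases away (25.2% to 33.996%). After the pentamer, C or G followed by a purine was found in 60.5% (57.3% to 63.6%) and 28.4% (24.2% to 33.0%). Core peaks had 64.9% and 65.5% on these measures, and the peaks beyond 1000 bases 58.8% and 59.8%. With respect to the gene, 48.7% of the CCAAT were on the gene's strand.

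Neighbouring CCAAT within a proximal peak lay at some distances more often than others. Among 409 neighbouring pairs in the central windows the most frequent distances were 31 bases (19 pairs), 32 bases (18), and 30 and 42 bases (15 each). Distances of 28 to 34 bases made up 17.6% of the pairs (Wilson interval 14.2% to 21.6%) and those of 38 to 44 bases 18.1% (14.7% to 22.1%), whereas in the flanking windows of all peaks, with 598 pairs, they made up 7.19% (5.38% to 9.55%) and 6.02% (4.38% to 8.22%). The 3 distances in between, 35 to 37 bases, held 5.87% of the pairs in proximal peaks and 4.01% in flanks. In these 2 ranges 81.9% and 78.4% of the pairs of proximal peaks had both CCAAT in the same orientation, against 62.1% of all pairs. In the flanking windows the shares in these ranges were 62.8% of 43 pairs and 72.2% of 36 pairs, and the difference was not tested. Core peaks had 21.4% and 15.2% of their 1483 pairs in the 2 ranges. The ranges were set after the distribution had been seen.

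**Figure D3:**
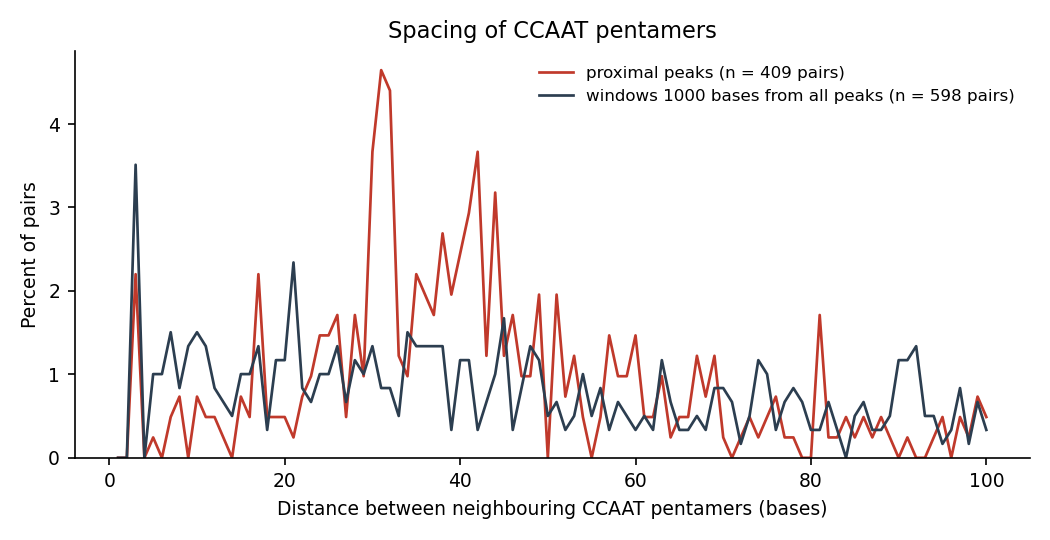
Percent of neighbouring CCAAT pairs against their distance in bases, within the central 200 bases of proximal peaks (409 pairs, red) and within 200-base windows centred 1000 bases from all peaks (598 pairs, dark). The proximal curve has maxima near 31 and 42 bases that the flanking windows lack.

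GC boxes and AP-1 motifs placed the proximal peaks between core and distant peaks. The GC box GGGCGG, the motif of SP1 and related factors, was in 47.2% of the central windows of proximal peaks, 60.3% of core and 19.2% of distant peaks, and in 14.2% of the windows flanking proximal peaks. Proximal minus distant peaks gave 28.03 points (23.7 to 32.3). TGANTCA, the motif of AP-1, showed the opposite order with 9.30%, 2.91% and 30.7%, and 4.01% in the windows flanking proximal peaks. Among proximal peaks TGANTCA was in 18.6% of those without CCAAT and in 6.13% of those with it, a difference of 12.5 points (6.93 to 19.1). Peaks without CCAAT were also weaker. TGANTCA was in 16.8% of proximal peaks with a mean control value up to 10 and in 3.41% of those above 30 and up to 100. The part of strength in the difference was not tested. Within a mean control value above 10 and up to 30 TGANTCA was in 14.4% of 187 proximal and 2.56% of 391 core peaks. All motifs were searched on both strands, and a match does not show that a factor is bound.

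For the comparison of genotypes 569 of the 699 proximal peaks had a mean of at least 10 normalized reads and were tested together with all other such peaks, 4746 in all, with limma on log2(value + 1). The remaining 130 were too weak to be tested. Among the 569 proximal peaks 3 were lower and 1 was higher in Taf4asKO at a Benjamini-Hochberg adjusted p under 0.05. This is a share of 0.527% lower and 0.176% higher, next to 0.611% and 0.337% among all tested peaks. Fold changes are log2 of Taf4asKO over control with the standard error of limma, for n = 2 against 2. With 2 libraries per group an exact permutation test of a single peak cannot give a two-sided p below 0.333, so that the calls rest on the variance limma shares among peaks.

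*Lgals1*, which encodes the secreted lectin galectin-1, had 454 and 479 normalized reads in controls and 260 and 279 in Taf4asKO. The fold change was −0.79 ± 0.12 (limma adjusted p = 0.0214). The peak (chr15:78926143-78926802) covers the start and is centred at −252.5 bases, where negative positions are upstream. *Tomm40* (chr7:19715424-19716066) fell from 1003 and 1177 to 676 and 736, by 0.62 ± 0.11 on the log2 scale (limma adjusted p = 0.0404). *Rfx7*, a winged-helix factor that binds X-box motifs, fell from 112 and 137 to 62 and 60 at a peak at −575.5 bases (chr9:72531518-72531811), with a fold change of −1.01 ± 0.19 (limma adjusted p = 0.0473). The centre of this peak is 193.5 bases from the start of *4930509E16Rik* on the opposite strand. In these 3 genes the values of the genotypes did not overlap.

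*Vmn1r43*, a vomeronasal receptor gene, was the proximal peak that was higher, with 23 and 20 in controls and 66 and 49 in Taf4asKO at −763.5 bases (chr6:89877011-89877342). Its fold change was 1.37 ± 0.26 (limma adjusted p = 0.0475). All 4 peaks were without another NF-YA peak within 1000 bases, and each holds CCAAT in its central 200 bases. The stretches around the CCAAT nearest the centre of the 3 peaks not yet shown are given from GRCm38 on the strand of the gene, with CCAAT and ATTGG in capitals.

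*Lgals1*, chr15:78926420-78926499, plus strand: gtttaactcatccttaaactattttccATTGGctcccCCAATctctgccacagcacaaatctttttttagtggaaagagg
*Rfx7*, chr9:72531637-72531716, plus strand: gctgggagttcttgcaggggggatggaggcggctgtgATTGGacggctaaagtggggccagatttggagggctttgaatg
*Vmn1r43*, chr6:89877201-89877280, minus strand: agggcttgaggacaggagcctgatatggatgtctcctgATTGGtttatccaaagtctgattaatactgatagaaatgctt

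With any 1 of the 4 libraries left out limma called 0 peaks among all those tested, proximal or not, so that these fits say nothing about the 4 calls in particular. At an unadjusted p under 0.05 they had 22 to 107 proximal peaks. The fold changes kept their direction, and that of *Lgals1* ranged from −0.84 to −0.74. *Rfx7* and *Vmn1r43* were also not called with the replicate number as a block, at limma adjusted p of 0.0684 and 0.0709, and *Rfx7* was not called when the libraries were centred on peaks whose mean was 100 or more (0.0630).

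**Figure D4:**
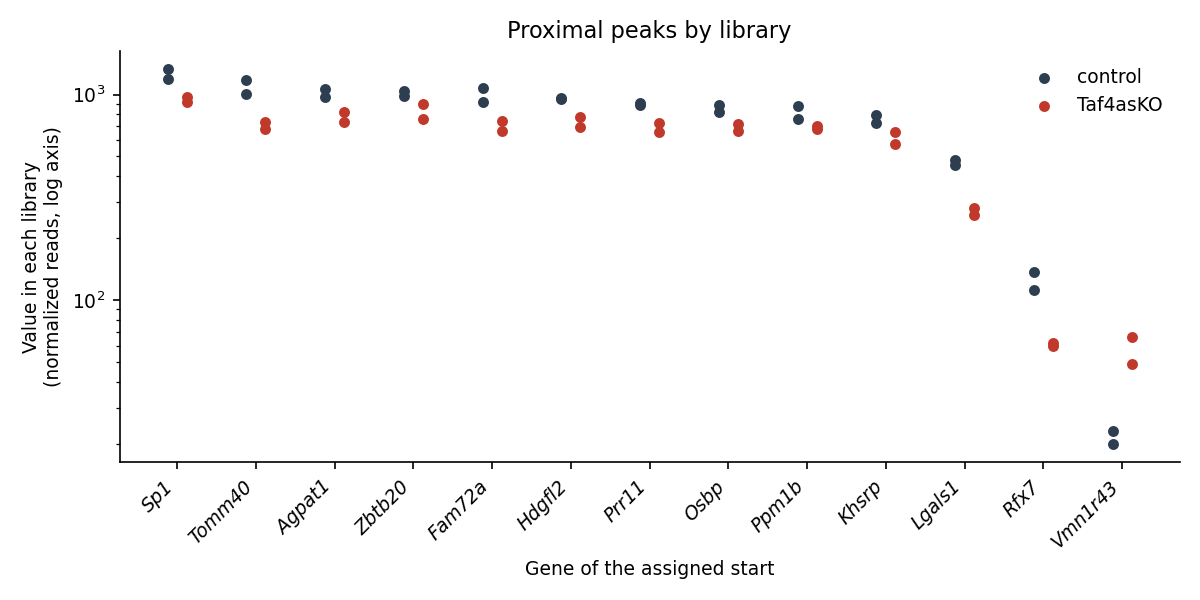
Normalized reads (log axis) of the 10 strongest proximal peaks and the called peaks in each library, with 2 dots for control (dark) and 2 for Taf4asKO (red) per peak. In 12 of the 13 peaks both Taf4asKO dots lie below both control dots, and at *Vmn1r43* both lie above. The peaks were chosen for strength or for their call, and among all tested peaks 28.6% lie lower and 19.3% higher without overlap.

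Of the 569 tested proximal peaks 548 (96.3%) had a fold change of less than 1 in size on the log2 scale, against 92.4% of all tested peaks. The median fold change was −0.11, against −0.04 over all tested peaks, and 60.6% of proximal peaks were lower in Taf4asKO against 53.8% of all. The direction of the median depended on the scaling. With library totals made equal it was 0.031 for proximal and 0.10 for all peaks, and with libraries centred on strong peaks, those whose mean was 100 or more, it was 0.10 and 0.16. A scaling moves all peaks nearly alike, so that the proximal median relative to that of all peaks, −0.06, hardly depends on it. This difference was −0.15 without a minimum value and −0.04 without Taf4asKO 1. The values of the genotypes did not overlap for 202 proximal peaks that were lower (35.5%) and 72 that were higher (12.7%), against 28.6% and 19.3% of all tested peaks. At an unadjusted limma p under 0.05 the shares were 12.7% lower and 3.16% higher for proximal peaks and 10.9% and 6.95% for all.

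These shares followed the strength of the peaks. Lower values in Taf4asKO were found for 44.3% of the 131 proximal peaks with a mean of 10 to 20, 41.8% of 146 between 20 and 50, 60.0% of 110 between 50 and 100, and 87.9% of 182 above 100. For all other tested peaks in the same ranges the shares were 39.9%, 44.7%, 56.6% and 83.9%. Of the 71 covering peaks 95.8% were lower, with a median fold change of −0.29, and of the 424 peaks away from starts 326 were tested and 55.2% were lower, with −0.06. With 182 of 569 peaks (proximal) and 789 of 4177 (all others) above 100, strong peaks made up a larger part of the proximal than of the other tested peaks.

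**Figure D5:**
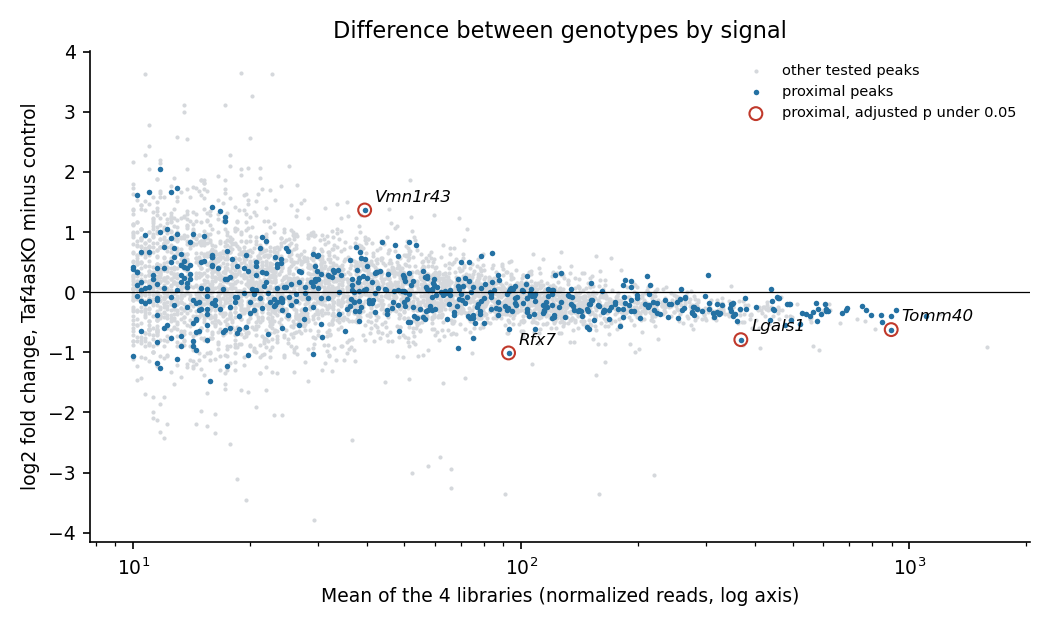
Log2 fold change (Taf4asKO minus control) of the 4746 tested peaks against the mean of the 4 libraries (normalized reads, log axis). Grey points are other peaks, blue points the 569 tested proximal peaks, and red circles the 4 proximal peaks with a limma adjusted p under 0.05. Strong peaks of both kinds lie mostly below 0.

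By fold alone, with a mean above 10 and a ratio of group means above 2, 12 of 566 proximal peaks were gained in Taf4asKO (2.12%) and 10 were lost (1.77%), against 4.29% and 3.13% of 4689 peaks in the table. Of the 22, *Vmn1r43* and *Rfx7* were called by limma. Gained peaks had a median mean of 13 over the 4 libraries, and lost peaks 15.6. The median gained peak had about 2.15 reads in Control 2. Weak peaks can pass the minimum only through the genotype in which they are high. Examples are *Zfp52*, with a control mean of 6, and *Kif18b*, with a Taf4asKO mean of 6. Of the 26 tested proximal peaks with a control mean of at most 10, 0 were lower in Taf4asKO, which the minimum largely fixes. The counts and fold changes of such weak peaks are therefore no support for a change. The largest decreases without overlap were at *Cit*, a kinase of cytokinesis, with 24, 23, 6 and 10 normalized reads (−1.48 ± 0.40, limma adjusted p = 0.112), *Prkar1a*, a regulatory subunit of protein kinase A, with 18, 16, 7 and 6 (−1.26 ± 0.44), and *Sox11*, an HMG-box factor, with 17, 33, 13 and 7 (−1.23 ± 0.45). *Kif18b*, a mitotic kinesin, had 8, 26, 7 and 5 (−1.17 ± 0.60), and *Slc17a4*, an anion transporter, had 13, 23, 11 and 5 (−1.11 ± 0.51). The largest increases without overlap, beside *Vmn1r43*, were at *Zfp52*, a zinc finger gene, with 9, 3, 19 and 21 (1.73 ± 0.53, limma adjusted p = 0.145), *Csnk1g3*, a casein kinase gene, with 7, 3, 18 and 16 (1.67 ± 0.53), *BC051142* with 4, 7, 15 and 24 (1.66 ± 0.49), and *Rab4b*, a GTPase of early endosomes, with 17, 3, 18 and 26 (1.42 ± 0.64). The value of *Rab4b* was 0.33 without Control 2 and 2.50 without Control 1, that of *Kif18b* −1.96 without Control 1, that of *Sox11* −0.77 without Control 2, that of *Slc17a4* −0.61 without Taf4asKO 2, and that of *Zfp52* 1.07 without Control 2. None of these 9 passed the adjusted threshold.

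The genes of the study's own pathway had weak proximal peaks, except *Nfya*. *Nfya* itself had 183, 251, 154 and 195 normalized reads 260.5 bases downstream of its assigned start and 42.5 bases from another start of the same gene, with 4 CCAAT in the centre (fold change −0.31 ± 0.19, limma adjusted p = 0.410). The proximal peak of *Taf4*, 248 bases upstream and 41 bases from the start of *4921531C22Rik* on the opposite strand, had 14, 20, 10 and 14 (−0.47 ± 0.40, limma adjusted p = 0.550). It lies outside the deleted exons and is no check of the deletion. Of the NSL complex, an acetyltransferase complex of chromatin, *Kansl1* had 20, 20, 25 and 29 at −654.5 bases (0.41 ± 0.29), and *Phf20* had 3 proximal peaks with 13, 10, 10 and 20, with 6, 10, 7 and 12, and with 16, 10, 11 and 13 (0.29 ± 0.45 and −0.08 ± 0.43 for the first and last, the second being too weak to be tested). *Prmt1*, an arginine methyltransferase, had 16, 23, 16 and 16 at 881 bases downstream (−0.25 ± 0.35). *Kansl2*, *Tbp*, *Mbd3*, *Nfyb* and *Nfyc* had no proximal peak.

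Among the 3203 coding genes with an NF-YA peak, 20.7% had a proximal one, and the 20 gene lists ranged from 9.09% to 66.7%, the latter being 2 of 3 NSL genes. Of 21 genes of NF-Y, TFIID, the SP and USF factors, Mediator and the general transcription machinery 7 had one. For the cell cycle these were 15 of 60, with *Cdc25c*, the phosphatase that activates CDK1, at 393, 333, 263 and 310 normalized reads and *Top2a*, topoisomerase II, at 298, 303, 228 and 279. Replication and repair had 9 of 38, led by *Parp3* and *Xrcc1*, a scaffold of single-strand break repair, with 122, 153, 107 and 103. Histone genes had 11 of 47, with *Hist1h3g* at 197, 232, 139 and 149. Histone genes are near-identical copies, so that the loss of multi-mapping reads can affect their values. Chromatin modifiers had 12 of 53, with *Kmt5c*, a methyltransferase of H4K20, at 690, 643, 550 and 552.

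Genes of ER stress and folding had 12 of 46. They were led by *Eif2ak3*, which encodes the ER stress kinase PERK, with 584, 597, 440 and 490, and *Manf*, a secreted protein induced by ER stress, with 389, 408, 288 and 335. Both intervals cover the start. Sterol and fatty acid synthesis had 8 of 30, with *Idi1*, an isomerase of the mevalonate pathway, at 216, 186, 182 and 183 and *Scd2*, a stearoyl-CoA desaturase, at 147, 130, 99 and 109. Mitochondria had 11 of 49, ribosome and translation 5 of 41, splicing and RNA binding 12 of 48, and proteasome and ubiquitin 16 of 70, the last led by *Ube2s*, a ubiquitin-conjugating enzyme of mitotic exit, with 409, 395, 317 and 347. Vesicle trafficking had 16 of 54, solute carriers 15 of 53, zinc finger proteins 29 of 104, autophagy and lysosome 3 of 15, growth and stress transcription factors 6 of 28 and signalling pathways 8 of 41. *Slc25a42*, a mitochondrial carrier of coenzyme A, had 711, 584, 539 and 588, *Mxd1*, a partner of MAX that opposes MYC, had 359, 365, 251 and 318, and *Map3k3*, a kinase that activates MAPK cascades, had 634, 698, 489 and 552.

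Muscle stem cell genes had 2 of 14, *Hes1*, a repressor that responds to Notch, with 110, 91, 99 and 104, and *Id2*, an inhibitor of basic helix-loop-helix factors, with 102, 82, 87 and 104. In both the values of the genotypes overlapped. Matrix and adhesion had 2 of 22, *Lgals1* and *Sparc*, a matrix protein, with 41, 29, 47 and 30. In the 20 lists *Tomm40* and *Lgals1* were the members called between genotypes, both lower, and the lists' other tested members did not pass. The median fold change of the lists ranged from −0.35 for the 5 tested peaks of ribosome and translation to 0.29 for the 3 tested peaks of the NSL complex, beside −0.11 for all proximal peaks.

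At the boundaries of the distance rule the values were mixed. The last peaks inside 200 bases, which are core peaks, were *Gzmb* with 0, 3, 5 and 3 normalized reads and *Lamtor4* with 103, 82, 94 and 111, both at 200 bases. The first proximal peaks, 1 base farther out, were *Echdc3* with 7, 10, 19 and 16 and *Ccdc117* with 10, 7, 8 and 7. The last were *Bahd1* at 995 bases with 58, 72, 47 and 59 and *Rasa3* at 1000 bases with 14, 20, 18 and 12. The next beyond were *Tmem120a* at 1002 bases with 16, 13, 16 and 15 and *Gamt* at 1004 bases with 6, 7, 7 and 8.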

How the data were processed

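Per the labels (versions from the submitters' processing notes) and the study's methods, the authors trimmed read pairs with Trimmomatic 0.39, aligned them with STAR 2.7.11a to mm10, removed duplicates with Picard 3.1.1, called peaks with MACS against IgG, unified the peaks of all libraries and counted reads with featureCounts. The deposited values are these counts normalized by the authors with DESeq2 and rounded to whole numbers, used here as a score per peak in units of normalized reads. By the study's methods, peaks were assigned to the nearest gene, within 10000 bases of its start. Some peaks lie nearer to another annotated start. The *Ap4m1* peak, for example, is 743 bases upstream of its assigned start and 18 bases from that of *Mcm7*.

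The distance was recomputed from the deposited gene coordinates and differed from the deposited one by at most 0.5 bases. It is therefore no check against another annotation. GENCODE M21 holds the genes of 698 of the 699 peaks, and 693 have the same gene coordinates in both. Sequence came from the RefSeq copy of GRCm38.p6. Starts within 20 bases of the assigned one were not counted as other starts. Reads in peaks, from the steps between values, were 351696 for Control 1, 111265 for Control 2, and 505241 for Taf4asKO 2. The step of Taf4asKO 1 was not resolved, and no count model was run. Totals of the values were 367346, 362892, 316959 and 344069.

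Genotypes were compared with limma 3.58.1 (R 4.3.3) on log2(value + 1) with a variance trend, for peaks whose mean was 10 or more, and Benjamini-Hochberg adjustment over all 4746. This scale understates changes of weak peaks. On simulated data for the same comparison, limma called 194 of 200 peaks changed by 2 on the log2 scale, and 1 unchanged peak, among 4705 tested. The share that limma recovers among changes smaller than 2 on the log2 scale, such as those of the called proximal peaks, was not tested. Intervals of shares are 95% Wilson intervals, and those of differences Newcombe intervals, computed with statsmodels 0.14.6.

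The named peaks are all called ones, the 10 strongest, the 5 largest changes in each direction without overlap, those of the study's genes, the 2 strongest of each list (of which some are printed), those at the distance boundaries, and extremes of the proximal to core ratio and of genes with several peaks. The members, lists and tests were chosen with earlier results of these data known. Alternatives were other scalings, minimum values, pseudocounts, a replicate block, weights by depth and leaving out each library.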

Additional observations from a re-analysis of the deposited data

How the results depend on the processing

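The number of called proximal peaks, 4, was 16 with equal library medians (15 lower), 15 with weights from the reads (11 lower), which rest on an unresolved read step for Taf4asKO 1, 11 at an adjusted p under 0.1, 0 without a minimum value, and 0 to 0 when 1 library was left out. In such fits the lone library of a group is assumed to vary like those of the other group. It was 5 with equal totals and 4 with centring on strong peaks, the latter with 2 lower, and 4 with a pseudocount of 5. With the replicate number as a replicate block it was 3, all lower, and 2 of these were also called without it. No label says that a number marks a shared animal or day, and the deviations of same-numbered samples had a correlation of −0.0883 over tested peaks and 0.256 over strong peaks, those whose mean was 100 or more. With 2 pairs this does not settle whether the numbers pair the samples. At an unadjusted p under 0.05 the fit without a minimum had 93 proximal peaks and the leave-one-out fits 22 to 107.

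The median fold change, −0.11, turned to 0.031 with equal totals and 0.10 with centring on strong peaks, and the share of lower peaks, 60.6%, to 47.3% and 38.1%. These scalings moved the median of all tested peaks by 0.14 and 0.21. Without 1 library the median ranged from −0.18 to −0.04 and the share from 55.1% to 69.6%. The median over single pairs of libraries had an SD of 0.09.

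Gained peaks, 12, numbered 21 with centring on strong peaks, 40 with a ratio of 1.5, 0 with a mean above 50, 5 where every value had to differ by more than 2-fold, and 8 to 36 without 1 library, the highest without Control 1. Lost peaks, 10, numbered 5 with equal totals, 4 with centring on strong peaks, 42, 1 and 2 under the other settings in the same order, and 8 to 16 without 1 library, again highest without Control 1, which leaves the shallow Control 2.

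The upstream share was 46.7% beyond 300 bases. The CCAAT share was 61.2% in the central 100 bases and 81.5% where the mean was 10 or more. Within whole intervals it was again 74.7%, with 499 peaks counted both ways. Another start was near 20.0% of centres within 100 bases and 21.5% for coding transcripts alone. The median control value was 33 to 36 with 1 control left out. The median log2 ratio of proximal to core peaks, the mean of both controls, was −2.40, −1.997 with a pseudocount of 5 and −1.58 for genes with both means at least 10. Of single peaks named for their fold change, the *Phf20* peak at 808.5 bases turned to 0.056 with equal totals and 0.12 with centring on strong peaks, and ranged from −0.39 to 0.24 without 1 library. The one at 248 bases ranged from −0.17, without Taf4asKO 2, to 0.76. Leaving out 1 library also moved *Nfya* (−0.53 to −0.078), *Taf4* (−0.71 to −0.22), *Prmt1*, *Zbtb20* and *Ppm1b* by over 1.5 times. Of the called peaks, *Tomm40* had −0.41 and *Rfx7* −0.80 with centring on strong peaks, which also moved *Nfya* to −0.095, *Taf4* to −0.27 and *Prmt1* to −0.049. It made the fold change of each of the 10 strongest peaks smaller by over 1.5 times, with *Sp1* at −0.19 and *Ppm1b* at −0.024. The causes of these changes were not tested.

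Depth limits weak peaks most. A value of 3 in Control 2 is about 1 read, and 27 proximal peaks were listed at 0 there, against 6 in Control 1, 0 in Taf4asKO 1 and 3 in Taf4asKO 2. Rounding hides the reads of Taf4asKO 1, so that it has no counting interval here.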

Other observations

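Other motifs in the central 200 bases of proximal peaks had low shares. The E-box CACGTG, bound by factors such as USF and MYC, was in 7.87% of proximal peaks (Wilson interval 6.09% to 10.1%) and in 2.93% of the windows 1000 bases away (2.17% to 3.95%). The cyclic AMP response element TGACGTCA was in 1.72% (0.985% to 2.98%) and 0.286% (0.111% to 0.733%). The TATA-box core TATAAA was rarer in the peaks than beside them, with 4.15% (2.90% to 5.89%) and 9.87% (8.42% to 11.5%).

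Among the 33 genes with 2 and the 2 genes with 3 proximal peaks, the 5 with the highest summed control signal each had a strong and a weak one. *Mon1b*, a factor of endosome maturation, had 699, 646, 488 and 600 normalized reads 275 bases upstream and 9, 10, 4 and 3 at 840 bases upstream. *Opa3*, a mitochondrial protein gene, had 551, 584, 374 and 401 at 270.5 bases downstream and 10, 7, 11 and 20 at 303 bases upstream. *Hnrnpul1*, an RNA-binding protein gene, had 543, 489, 435 and 465 at −344.5 bases and 19, 16, 16 and 14 at −869 bases, where negative positions are upstream. *Map3k3* and *Eif2ak3*, described above for their strong peaks, had 17, 3, 10 and 8 and 1, 0, 3 and 0 at their second proximal peak.

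Of the marker genes of other cell types, *Acta2*, a smooth muscle actin, had a proximal peak, 247 bases downstream of its start, with 42, 7, 16 and 15 normalized reads. *Ptprc*, *Pecam1*, *Pdgfra*, *Ly6a* and *Mbp* had no peak in the table.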
